A study of Mus musculus with 5 samples.

Results

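Heat shock proteins and their cochaperones were examined in kidney cortical tissue of *Fnip1* null and wildtype mice. Members were chosen by gene symbol alone: the heat shock proteins of the HSP90, HSP70, HSP110, HSP60, HSP10 and small families, the DnaJ proteins of subfamilies A, B and C, the heat shock factors *Hsf1*, *Hsf2* and *Hsf4*, and the BAG proteins *Bag1* to *Bag6*. This gave 81 of the 24421 gene symbols in the count files. RNAseq reads per gene were available for 3 *Fnip1* null mice (*Fnip1*-/-, mice 8637, 9121 and 9210) and 2 wildtype mice (*Fnip1*+/+, mice 9055 and 9056), all of the C57BL6J strain, untreated, with 1 library of flash-frozen cortical kidney per mouse. Mouse 9210 is numbered as in its label, and the deposited file of that sample carries the same digits in another order. The null allele came from ENU chemical mutagenesis and is carried by every cell of the animal, so the kidney is not the sole tissue that lacks *Fnip1*. The labels give the controls as *Fnip1*+/+, whereas the text of the study names *Fnip1*+/- mice for its RNAseq, and no label gives an age or a sex. A figure legend of the study gives its RNAseq mice a range of ages spanning several weeks, without the age of each mouse. The mice are separate animals, and p-values measure the spread between these 5 animals.

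Heat shock proteins are molecular chaperones, which bind proteins that are unfolded or partly folded and help them to fold, to assemble or to be degraded. HSP70 chaperones cycle between ATP and ADP, DnaJ proteins deliver clients to them and start ATP hydrolysis, and HSP110 and BAG proteins exchange the nucleotide. HSP90 takes over many signaling proteins at a late stage of folding, HSP60 and HSP10 form the folding chamber of the mitochondrial matrix, and small heat shock proteins hold unfolded clients without ATP. In the cytosol many of these genes are switched on by heat shock factor 1 (HSF1) through heat shock elements, while the chaperones of the endoplasmic reticulum (ER) are switched on by the unfolded protein response through ER stress elements. Tubular cells of the kidney cortex are rich in mitochondria and make large amounts of membrane protein.

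Both kinds of element were looked for in promoter windows, and the sequences shown are those of members that the results below describe. RefSeq windows on GRCm38.p6, from 250 bases before to 50 bases after a gene's start, were available for 64 of the 81 members (82 windows). An ER stress element was read as CCAAT and CCACG separated by 9 bases, on either strand. It was present in 3 of the 82 windows of members (3.66%) and in 39 of all 32851 windows (0.119%), and the genes of these 3 windows were *Hspa5*, *Hsp90b1* and *Dnajc3*, all of them chaperones or cochaperones of the ER. Their bases before the start site are shown 5′ to 3′ on the strand of the gene, with the element in capitals. *Hspa5* (BiP, the HSP70 of the ER, chr2:34771840-34772089, plus strand) has 1 element beginning 65 bases before the start, *Hsp90b1* (GRP94, the HSP90 of the ER, chr10:86705445-86705694, minus strand) has 2, beginning 212 and 107 bases before it, and *Dnajc3* (p58IPK, an ER DnaJ protein, chr14:118937682-118937931, plus strand) has 1, beginning 105 bases before it.
Hspa5: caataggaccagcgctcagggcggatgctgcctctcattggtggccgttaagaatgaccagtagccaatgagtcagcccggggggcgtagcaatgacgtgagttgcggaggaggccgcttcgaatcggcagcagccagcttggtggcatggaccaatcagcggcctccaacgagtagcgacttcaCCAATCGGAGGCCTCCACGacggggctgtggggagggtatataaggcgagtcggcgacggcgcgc
Hsp90b1: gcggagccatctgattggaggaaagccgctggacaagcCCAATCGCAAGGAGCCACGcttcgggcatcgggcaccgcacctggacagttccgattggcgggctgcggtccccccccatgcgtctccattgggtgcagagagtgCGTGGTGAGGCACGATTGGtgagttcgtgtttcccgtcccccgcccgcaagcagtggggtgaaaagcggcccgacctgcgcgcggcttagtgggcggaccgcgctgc
Dnajc3: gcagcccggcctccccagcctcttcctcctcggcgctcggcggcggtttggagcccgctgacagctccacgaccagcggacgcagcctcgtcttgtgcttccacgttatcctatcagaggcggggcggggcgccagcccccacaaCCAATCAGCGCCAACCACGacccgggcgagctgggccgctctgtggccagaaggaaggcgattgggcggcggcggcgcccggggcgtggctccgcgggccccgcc

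A heat shock element was read as a pair of inverted units, GAANNTTC or TTCNNGAA, each the same on both strands. The pair was present in 19 of the 82 windows of members (23.2%) and in 4946 of all windows (15.1%), so it is common by itself. Of the 14 members known best for induction by heat (named below as heat-inducible), 11 had windows, and 10 of these 16 windows held it (62.5%). The stricter form with 3 alternating units, which contains the pair, was present in 6 windows of members (7.32%), those of *Hspd1*, *Hspe1*, *Hsph1* and *Dnajb6*, and in 198 of all windows (0.603%). Windows are not all separate sequences, since *Hspd1* and *Hspe1* share their promoter and a gene can have more than 1 window. By gene, the pair was present in 9 of the 11 heat-inducible members with windows. The 3-unit form was present in 4 of the 64 members with windows and in 179 of all 27025 genes. The sequences below show the 215 bases shared by *Hspd1* and *Hspe1*, which encode HSP60 and HSP10 and are transcribed away from each other (chr1:55087933-55088147, shown on the plus strand, that of *Hspe1*), and the 150 bases before the start of *Hspa1a* (chr17:34972157-34972306, minus strand) and *Hspa1b* (chr17:34959239-34959388, minus strand), the pair of stress-inducible HSP70 genes. Capitals mark the inverted pairs, which overlap in a run beginning 89 bases before the start of *Hspe1* and stand alone 104 bases before the start of *Hspa1a* and *Hspa1b*. *Hspa1a* and *Hspa1b* are identical in 149 of these 150 bases. A match is a description of the letters and was not tested for binding, and *Hspa8* had no window.
Hspe1 and Hspd1: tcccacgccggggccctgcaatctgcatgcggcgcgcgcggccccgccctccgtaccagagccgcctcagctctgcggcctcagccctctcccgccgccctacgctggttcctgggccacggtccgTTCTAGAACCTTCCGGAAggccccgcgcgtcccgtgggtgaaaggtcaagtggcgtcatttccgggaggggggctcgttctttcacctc
Hspa1a: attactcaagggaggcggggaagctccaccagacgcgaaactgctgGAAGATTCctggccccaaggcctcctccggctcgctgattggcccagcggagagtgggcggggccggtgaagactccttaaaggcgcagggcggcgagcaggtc
Hspa1b: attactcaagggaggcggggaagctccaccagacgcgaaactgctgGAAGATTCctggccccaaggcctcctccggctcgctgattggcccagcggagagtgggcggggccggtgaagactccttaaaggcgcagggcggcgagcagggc

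Reads counted on genes ran from 15799114 to 19132145 per mouse, where 3 counts correspond to 0.158 to 0.186 CPM (counts scaled to a common library size, with TMM factors between 0.914 and 1.09). The *Fnip1* transcript was at 20.98, 16 and 16.9 CPM in null mice 8637, 9121 and 9210 and at 51.8 and 48.7 CPM in wildtype mice 9055 and 9056, and the null mice lay below both wildtype mice; the counts cover the whole gene, so they do not read the mutated position itself. *Xist*, the RNA that coats the silenced X chromosome of female cells, was at 314 CPM in null mouse 9121 and at most 1.41 CPM in the other 4 mice, and *Ddx3y*, a gene of the Y chromosome, was at 0 in mouse 9121 and between 42.8 and 52.2 CPM in the others. The other Y genes read, *Eif2s3y*, *Kdm5d* and *Uty*, were at 0.37, 0 and 0 CPM in mouse 9121 and at 17.3 CPM or more in the others. By these genes mouse 9121 reads as female and the other 4 mice as male. The null group thus mixes the sexes while both wildtype mice read as male, and the part of sex was not tested. Proximal tubule markers were abundant in every library, with summed levels of 6 markers between 7756 and 11370 CPM. Summed levels of 5 adipocyte markers were 53.9, 162 and 347 CPM in null mice 8637, 9121 and 9210 and 36.5 and 35.3 CPM in wildtype mice, and *Plin1*, a defining marker, was between 0.057 and 0.311 CPM in mouse 8637 and the wildtype mice and at 4.17 and 8.68 CPM in mice 9121 and 9210. Of 14 tested leukocyte markers 13 were higher in null mice, 11 without overlap (78.6%, against 22.9% of all genes). At an FDR of 5% and 2-fold, edgeR's quasi-likelihood test, used below, called 1 of the 14 (0.526% of all genes). EdgeR's exact test called 8 of them (4.07% of all genes). Median ratios of these markers to the wildtype mean were 1.58, 3.61 and 2.34 in mice 8637, 9121 and 9210. Their summed level, 117, 252 and 148 against 132 and 109 CPM, is weighted by *Csf1r*, which was lower in null mice (38.3, 63.9 and 36.4 against 72.4 and 68.4 CPM). In whole tissue, fewer cells of a type and less RNA per cell cannot be told apart.

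No member passed the threshold for differential expression, but the members did not lie evenly around 0. Of the 81 members, 77 had a count in at least 1 mouse and 74 had at least 10 counts in at least 3 mice and were tested, among 13874 genes. None of the 74 was called by edgeR's quasi-likelihood test with the FDR held at 5% and a fold change of 2 or more, and without the fold limit the count was also 0. Over all genes tested 73 were called (0.526%). An unadjusted p under 0.05 was reached by 13 members (17.6%), against 25.1% of all genes. The transcript level was lower in *Fnip1* null mice in 49 members and higher in 25, with a median log2 fold change (null minus wildtype) of -0.11 against 0.004 over all genes. All 3 null mice lay below both wildtype mice in 22 members (29.7%; 23.0% of all genes) and above both in 12 (16.2%; 22.9% of all genes). With library size alone in place of TMM scaling, the median of all genes moved to 0.17 and that of the members to 0.05, and the members without overlap became 22 higher and 8 lower (all genes 5167 and 1576), so the members stood below the median of all genes under both scalings but their direction did not hold. These counts of all genes, 5167 higher and 1576 lower of 13874, are the background for each list below under library size alone. For 1 gene in 3 against 2 mice, 0.1 is the smallest p that exact permutation allows.

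**Figure D1:**
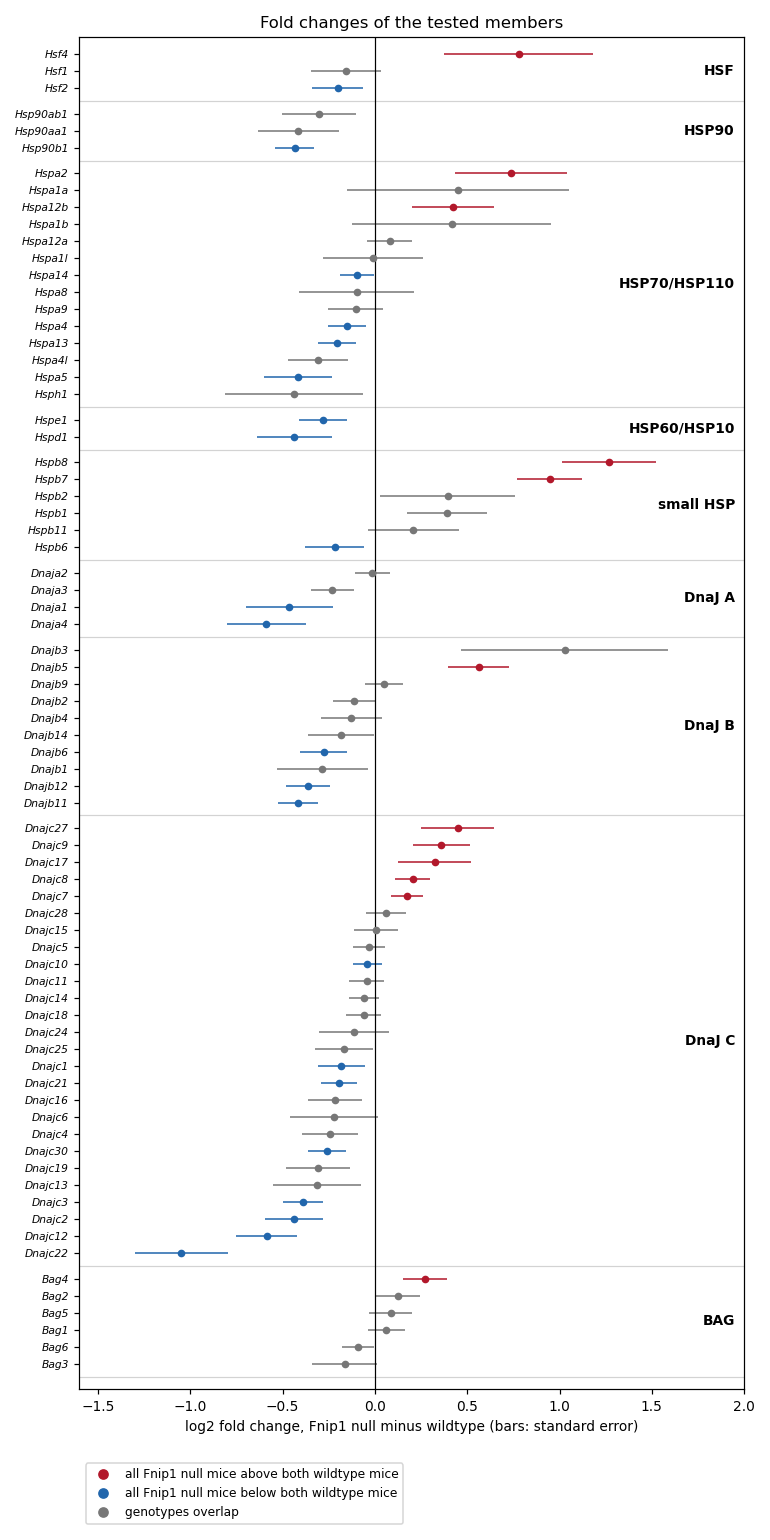
Log2 fold change (*Fnip1* null minus wildtype, horizontal axis) of the 74 tested members, grouped by family, with bars for the standard error. Red points mark the 12 members in which all 3 *Fnip1* null mice lay above both wildtype mice and blue points the 22 in which all 3 lay below, under TMM scaling; grey points mark members whose genotypes overlapped.

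Other tests of the same counts called a few members. EdgeR's exact test called *Hspb8* (higher) and *Dnajc22* (lower) at the FDR and 2-fold (4.07% of all genes), and passed 4 members at the FDR alone (9.77% of all genes), with *Hspb7* higher and *Dnajc12* lower in addition. DESeq2 passed 7 members at the FDR alone (10.7% of all genes with an adjusted p): these 4 and the lower *Hsp90b1*, *Dnajb11* and *Dnajc3*. Leaving out mouse 8637, the quasi-likelihood test called 3 members, *Hspb7*, *Hspb8* and *Dnajc22* (6.82% of all genes), and 19 members passed the FDR alone (20.1% of all genes), 16 of them lower (10.1% of all genes) and 3 higher. Leaving out mouse 9121 or mouse 9210, it called 0 members and passed 0 at the FDR alone, and without mouse 9210 it passed 0 of all genes.

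Transcripts of the chaperones made up 1.03% to 1.34% of the gene counts of a mouse, and a few of them dominated. Per kilobase of exon, *Hspa8* stood first, with mean levels of 712 CPM per kb in wildtype and 665 in *Fnip1* null mice. It encodes HSC70, the HSP70 that cells make at all times. *Hsp90ab1*, the constant HSP90, followed with 532 and 431 CPM per kb, *Hspd1* with 342 and 253, and *Hspa9* (mortalin, the HSP70 of the mitochondrial matrix) with 255 and 238. *Bag1*, a nucleotide exchange factor of HSP70, came next with 173 and 181 CPM per kb. At the other end, *Dnajb8*, *Dnajc5b*, *Dnajc5g* and *Hspb3* had no count in any mouse, which allows up to 0.186 CPM, and *Dnajb7*, *Dnajb13* and *Hspb9* were at most 0.42 CPM in each mouse and were not tested.

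**Figure D2:**
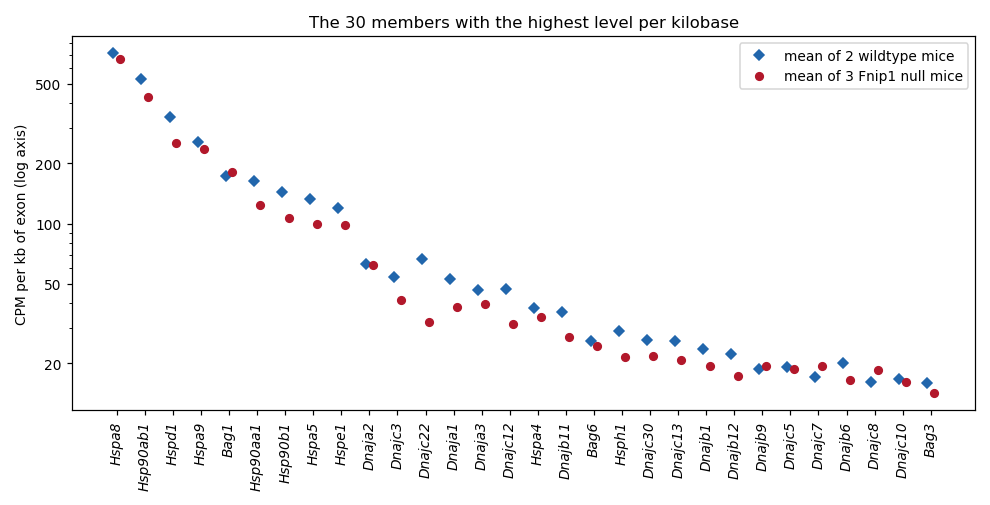
Mean level of the 30 highest members, in CPM per kilobase of exon on a log axis, for wildtype (blue diamonds, n = 2) and *Fnip1* null mice (red circles, n = 3). *Hspa8*, *Hsp90ab1*, *Hspd1*, *Hspa9* and *Bag1* lead, and *Hspa8* is at 712 CPM per kb in wildtype mice.

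The heat shock factors, which switch these genes on, ranked 61 (*Hsf1*), 67 (*Hsf2*) and 70 (*Hsf4*) in level per kilobase among the 81 members. *Hsf1*, the main factor of the heat response, was at 26.7, 18.3 and 18.7 CPM in null mice 8637, 9121 and 9210 and at 22.8 and 24.4 CPM in wildtype mice 9055 and 9056 (the order of mice used from here on). Mouse 8637 was above and the other null mice were below both wildtype mice (log2 fold change -0.16 ± 0.19 SE, quasi-likelihood adjusted p = 0.636). *Hsf2* was at 14.7, 12.1 and 13.8 CPM against 15.2 and 15.96 CPM, slightly lower in all null mice (-0.20 ± 0.14, adjusted p = 0.389). *Hsf4*, a factor known from the lens, was at 2.00, 3.70 and 1.96 CPM against 1.80 and 1.20 CPM (0.78 ± 0.40, adjusted p = 0.276), with 21 to 70 counts per mouse.

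Among members induced by heat, the 3 null mice did not lie together: mouse 8637 was mostly near or above the wildtype level while mice 9121 and 9210 were mostly below it. The 14 members of this list were *Hspa1a*, *Hspa1b*, *Hspa8*, *Hspa4l*, *Hsph1*, *Hsp90aa1*, *Hsp90ab1*, *Dnaja1*, *Dnajb1*, *Hspb1*, *Hspb8*, *Hspd1*, *Hspe1* and *Bag3*. Mouse 8637 had the highest level of the 3 null mice in 13 of the 14 (all but *Hspb8*; 38.7% of all genes), and was above both wildtype mice in 8 (57.1%; 37.1% of all genes). Mice 9121 and 9210 were both below both wildtype mice in 11 of the 14 (78.6%; 34.3% of all genes). Relative to the wildtype mean, the median of the 14 genes was 1.10 in mouse 8637, 0.716 in mouse 9121 and 0.714 in mouse 9210. The median ratio of the highest to the lowest null mouse was 1.59 in these genes and 1.25 over all genes, while that of the wildtype mice was 1.12 and 1.11. These counts by mouse use TMM scaling and were chosen after the values had been seen. Between genotypes the median log2 fold change of the 14 was -0.28 (-0.13 with library size alone). Without overlap 3 were lower (21.4%, against 23.0% of all genes) and 1 higher (7.14%, against 22.9%). With library size alone these became 0 lower and 2 higher.

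*Hsph1* showed this pattern most plainly. It encodes HSP110, the nucleotide exchange factor of HSP70 and a known target of HSF1, and its promoter is among those with the 3-unit form. Its levels were 250, 109 and 108 CPM in null mice and 216 and 206 CPM in wildtype mice. Mouse 8637 was above and the other null mice were at 0.516 and 0.514 of the wildtype mean, so the groups overlapped (-0.44 ± 0.37, adjusted p = 0.494). Without mouse 8637, the highest null mouse, the log2 fold change of *Hsph1* was -0.96, with a quasi-likelihood adjusted p of 0.00478. In that fit 20.1% of all genes passed the FDR. Without mouse 9121 or mouse 9210 the log2 fold change was -0.23 in each, with quasi-likelihood adjusted p of 0.746 and 0.79.

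The stress-inducible HSP70 genes spread more widely. *Hspa1a* was at 39.0, 12.9 and 8.92 CPM in null mice and at 15.7 and 13.96 CPM in wildtype mice. *Hspa1b* was at 52.6, 23.0 and 13.3 CPM against 26.03 and 18.4 CPM. In both genes mouse 8637 was more than 2-fold above the wildtype mean and mouse 9210 was the lowest of all, so the log2 fold changes of 0.45 ± 0.60 and 0.42 ± 0.54 (adjusted p = 0.670 and 0.661) turned to -0.44 and -0.29 without mouse 8637. *Hspa1a* and *Hspa1b* share 66.3% and 62.3% of their 50-base stretches, mainly with each other, and reads that align to both were left out of the counts, so their levels are uncertain.

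*Hspa8* was at 3809, 2018 and 2753 CPM in null mice and at 3141 and 2985 CPM in wildtype mice. Mouse 8637 was again the highest and the other null mice were below both wildtype mice (-0.10 ± 0.31, adjusted p = 0.868). Its sign depended on the fit: the log2 fold change was 0.10 without mouse 9121 and 0.05 with library size alone. *Hspa8* shares 68.8% of its 50-base stretches with other transcripts, mostly pseudogenes, and is uncertain for that reason. *Hspa4l*, a further HSP110 protein, was at 42.6, 30.7 and 31.3 CPM against 42.2 and 44.2 CPM (-0.31 ± 0.16, adjusted p = 0.281).

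The cytosolic HSP90 genes had the same order of mice. *Hsp90aa1*, the inducible form, was at 631, 390 and 433 CPM in null mice and at 612 and 680 CPM in wildtype mice (-0.41 ± 0.22, adjusted p = 0.283). It shares 50.1% of its 50-base stretches with other transcripts. *Hsp90ab1* was at 1559, 1114 and 1200 CPM against 1496 and 1693 CPM (-0.30 ± 0.20, adjusted p = 0.382). In both genes mouse 8637 lay between the wildtype mice and the other null mice lay below them.

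Of the DnaJ partners of cytosolic HSP70, *Dnaja1* was at 446, 260 and 283 CPM in null mice and at 451 and 458 CPM in wildtype mice. All null mice were below both wildtype mice, mouse 8637 by a small margin (-0.46 ± 0.24, adjusted p = 0.270). Without mouse 8637 the log2 fold change was -0.74 (quasi-likelihood adjusted p = 0.00892), in the fit where 20.1% of all genes passed the FDR. Without mouse 9121 or mouse 9210 it was -0.32 and -0.36 (quasi-likelihood adjusted p = 0.45 and 0.54). *Dnajb1* (HSP40), the classic heat-inducible DnaJ protein, was at 83.7, 57.6 and 45.0 CPM against 79.8 and 71.5 CPM (-0.28 ± 0.25, adjusted p = 0.499). *Bag3*, which links HSP70 to autophagy, was at 44.8, 34.0 and 30.7 CPM against 44.2 and 37.6 CPM (-0.16 ± 0.18, adjusted p = 0.590). *Hspb1* (HSP25), a small heat shock protein, ran the other way, at 13.0, 11.4 and 9.63 CPM against 10.2 and 7.09 CPM (0.39 ± 0.22, adjusted p = 0.306), and shares 50.1% of its 50-base stretches with pseudogenes.

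**Figure D3:**
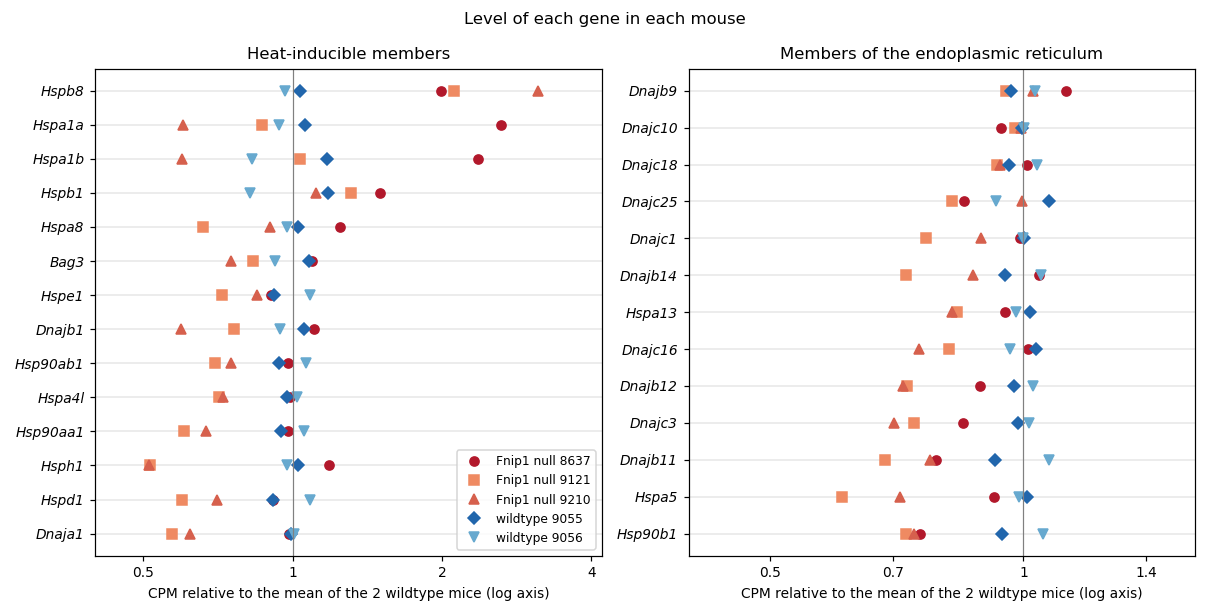
Level of each heat-inducible member (left, 14 genes) and each member of the endoplasmic reticulum (right, 13 genes) in each mouse, as CPM relative to the mean of the 2 wildtype mice on a log axis. Null mouse 8637 (dark red circles) is the highest null mouse in 13 of the 14 genes on the left, with medians of 1.10, 0.716 and 0.714 in mice 8637, 9121 and 9210, and on the right the null mice have medians of 0.942, 0.765 and 0.823.

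Some values of the libraries moved with this split of the null mice and others did not, and their part in it was not tested. Mouse 8637 had the largest share of reads aligned to more than 1 place (31.4%; 28.3% to 29% in the other mice) and the lowest adipocyte sum and leukocyte median of the null mice. *Xist* was high in mouse 9121 alone, and the median ratio of the heat-inducible genes was 0.716 in that mouse and 0.714 in mouse 9210. Summed proximal tubule markers were 10020, 7756 and 8517 CPM in null mice and 10550 and 11370 CPM in wildtype mice, in the same order of null mice as the summed heat-inducible genes, at 7963, 4737 and 5713 CPM. *Slc34a1*, the phosphate transporter, outweighs the other markers in that sum (5368, 3963 and 4821 against 5717 and 6346 CPM), *Lrp2* and *Aqp1* had other orders of null mice, and the glucose transporter *Slc5a2* and the monocarboxylate transporter *Slc5a12* were higher in all null mice than in both wildtype mice. The clock genes showed part of the same split: mouse 8637 was the highest null mouse in 11 of 15 (73.3%; 38.7% of all genes) and above both wildtype mice in 11 (73.3%; 37.1% of all genes), while mice 9121 and 9210 were both below both wildtype mice in 3 (20%; 34.3% of all genes).

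Members of the endoplasmic reticulum were mostly lower in *Fnip1* null mice, although none passed the quasi-likelihood test. Of the 13 genes listed as ER residents, 12 had a negative log2 fold change (median -0.20, -0.32 without mouse 8637) and 8 had all null mice below both wildtype mice (61.5%; 23.0% of all genes), while 0 had all null mice above (22.9% of all genes). None of the 13 passed the quasi-likelihood FDR or that of the exact test, 4 had an unadjusted p under 0.05 (30.8%; 25.1% of all genes), and DESeq2 passed 3, all lower (10.7% of all genes in either direction). With library size alone the median was -0.04, and 4 were lower and 2 higher without overlap. The median ratio to the wildtype mean was 0.942, 0.765 and 0.823 in mice 8637, 9121 and 9210, so mouse 8637 was nearest to the wildtype mice here too.

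*Hsp90b1*, whose promoter holds 2 ER stress elements, had the tightest null values of the 13 ER members. It was at 438, 422 and 431 CPM in *Fnip1* null mice and at 549 and 614 CPM in wildtype mice. No null mouse reached the lower wildtype mouse, and the log2 fold change was -0.43 ± 0.11 (fold 0.740, quasi-likelihood adjusted p = 0.0972). DESeq2 gave it an adjusted p of 0.00282 and edgeR's exact test 0.0783, so the call depends on the test, and 15.7% of its exon bases overlap other genes, among them *1810014B01Rik*. *Hspa5* was at 521, 343 and 403 CPM against 570 and 558 CPM. All null mice were below, mouse 8637 by the least (-0.42 ± 0.18, adjusted p = 0.217).

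Most DnaJ proteins of the ER list were lower as well. *Dnajb11* (ERdj3), which binds unfolded clients in the ER lumen, was at 92.7, 80.6 and 91.0 CPM in null mice and at 109 and 126 CPM in wildtype mice. All null mice were below both wildtype mice (-0.42 ± 0.11, quasi-likelihood adjusted p = 0.103, DESeq2 adjusted p = 0.0403). *Dnajc3* was at 236, 206 and 196 CPM against 274 and 283 CPM, again without overlap (-0.39 ± 0.11, quasi-likelihood adjusted p = 0.112, DESeq2 adjusted p = 0.0396). *Dnajb12*, an ER membrane protein that takes part in the disposal of misfolded membrane proteins, was at 66.9, 54.8 and 54.3 CPM against 73.4 and 77.4 CPM (-0.36 ± 0.12, adjusted p = 0.140). The exception in sign was *Dnajb9* (ERdj4), a target of the XBP1 branch of the unfolded protein response, at 53.9, 45.7 and 49.3 CPM against 46.4 and 49.5 CPM (0.05 ± 0.10, adjusted p = 0.793).

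Genes of the ER unfolded protein response that are not members were read from a list of 25. Of these, 20 had a negative log2 fold change (median -0.20, -0.05 with library size alone), 13 had all null mice below both wildtype mice (52%; 23.0% of all genes) and 3 had them above (12%; 22.9% of all genes), or 8 and 5 with library size alone. By the quasi-likelihood test 0 passed the FDR and 12 had an unadjusted p under 0.05 (48%; 25.1% of all genes). EdgeR's exact test passed 2, both lower (9.77% of all genes), and DESeq2 passed 4, all lower (10.7% of all genes). *Calr* (calreticulin, a lectin chaperone of the ER) was at 507, 511 and 524 CPM in null mice and at 705 and 815 CPM in wildtype mice (-0.56 ± 0.12, quasi-likelihood adjusted p = 0.0774, exact test adjusted p = 0.0192). *Edem1*, which sends misfolded glycoproteins to degradation, was at 126, 83.2 and 91.1 CPM against 172 and 184 CPM (-0.83 ± 0.18, quasi-likelihood adjusted p = 0.0803, exact test adjusted p = 0.00335). *Ddit3* (CHOP), the stress factor of the PERK branch, went the other way, at 12.3, 11.4 and 10.6 CPM against 7.64 and 8.35 CPM (0.51 ± 0.15, adjusted p = 0.117). Of the 21 genes of this list with a promoter window, 6 held an ER stress element (28.6% of windows), among them *Calr*.

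Mitochondrial chaperones and DnaJ proteins were close to the wildtype level or below it. Of the 10 listed members, 8 had a negative log2 fold change (median -0.24, -0.07 with library size alone), 3 had all null mice below both wildtype mice (30%; 23.0% of all genes) and 0 had them above, and with library size alone 0 were below and 2 above. *Hspd1* was at 825, 542 and 636 CPM in null mice and at 828 and 981 CPM in wildtype mice, without overlap but with mouse 8637 next to mouse 9055 (-0.44 ± 0.20, adjusted p = 0.237). *Hspe1*, its partner across the shared promoter, was at 159, 126 and 149 CPM against 161 and 191 CPM, with the mice in the same order as in *Hspd1* (-0.28 ± 0.13, adjusted p = 0.240). *Hspd1* and *Hspe1* share 42.1% and 44.8% of their 50-base stretches with other transcripts and are uncertain. *Hspa9* was at 1114, 926 and 1031 CPM against 1070 and 1131 CPM, and the genotypes overlapped (-0.10 ± 0.15, adjusted p = 0.688, 0.06 with library size alone). In a list of 12 further genes of mitochondrial proteostasis, 11 had a negative log2 fold change and 0 passed the quasi-likelihood FDR (4 at an unadjusted p under 0.05, and 1 by the exact test and 1 by DESeq2, each lower), with a median of -0.14, or 0.02 with library size alone.

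Small heat shock proteins held the largest positive log2 fold changes of members without overlap. *Hspb8* (HSP22), the partner of *Bag3* in chaperone-assisted autophagy, was at 7.54, 8.03 and 11.8 CPM in *Fnip1* null mice and at 3.91 and 3.66 CPM in wildtype mice. Every null mouse was about 2-fold or more above the wildtype mean, with no overlap (1.27 ± 0.25, fold 2.41, quasi-likelihood adjusted p = 0.0738, exact test adjusted p = 0.00165). *Hspb7* (cvHSP), known from heart and muscle, was at 7.60, 8.87 and 9.33 CPM against 4.29 and 4.63 CPM. The null mice again lay clear of the wildtype mice (0.95 ± 0.18, fold 1.93, quasi-likelihood adjusted p = 0.0682, exact test adjusted p = 0.00291), and *Hspb7* had the smallest p of all members. Between them in size stood *Dnajb3*, at 0.59, 1.80 and 1.43 CPM against 0.50 and 0.74 CPM, whose genotypes overlapped (1.03 ± 0.56, adjusted p = 0.298). *Hspb8* and *Hspb7* rest on modest counts, 63 to 199 and 69 to 168 per mouse. *Bag3* itself had a log2 fold change of -0.16. Of the 6 tested small heat shock proteins 5 had a positive log2 fold change (median 0.39), and the exception was *Hspb6* at -0.22. Without overlap 2 were higher (33.3%; 22.9% of all genes) and 1 lower (16.7%; 23.0% of all genes), or 3 and 0 with library size alone. *Cryab*, a small heat shock protein outside the chosen symbols, was at 74.7, 112 and 89.5 CPM against 107 and 91.5 CPM (-0.11 ± 0.18, quasi-likelihood adjusted p = 0.74).

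Since *Hspb7* and *Hspb8* are known from muscle, muscle markers are given beside them, and their part in the 2 genes was not tested. Summed levels of 5 smooth muscle and pericyte markers were 95.7, 128 and 172 CPM in null mice and 84.6 and 72.0 CPM in wildtype mice. The sum had the same order of null mice as *Hspb7* and *Hspb8*, as did *Acta2*, *Tagln* and *Myh11*. *Des* (15.3, 21.2 and 18.9 CPM) and *Cnn1* (1.12, 0.739 and 1.43 CPM) had other orders of null mice. *Myh11* was at 17.8 CPM in mouse 8637, below both wildtype mice (20.6 and 20.5 CPM). Skeletal muscle markers were near 0, with sums between 1.12 and 2.18 CPM, and its myosin *Myh4* had no count in any mouse.

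*Dnajc22* had the largest negative log2 fold change of the 74 members. It encodes a DnaJ protein with several membrane spans, and in these kidneys it ranked 12 in level per kilobase among the members. It was at 81.9, 43.5 and 53.2 CPM in *Fnip1* null mice and at 116 and 130 CPM in wildtype mice. The highest null mouse, 8637, was well below the lower wildtype mouse (-1.05 ± 0.25, fold 0.484, quasi-likelihood adjusted p = 0.0953, exact test adjusted p = 0.00411). Without mouse 8637 the log2 fold change was -1.35 (quasi-likelihood adjusted p = 0.0058), in the fit where 20.1% of all genes passed the FDR. Without mouse 9121 or mouse 9210 it was -0.86 and -0.97 (quasi-likelihood adjusted p = 0.0848 and 0.289). *Dnajc12*, a cochaperone of the aromatic amino acid hydroxylases, was at 163, 117 and 143 CPM against 189 and 234 CPM, also without overlap (-0.59 ± 0.16, quasi-likelihood adjusted p = 0.112, exact test adjusted p = 0.0433). Both had the same order of null mice as the summed proximal tubule markers, and the part of tubular cell content was not tested.

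**Figure D4:**
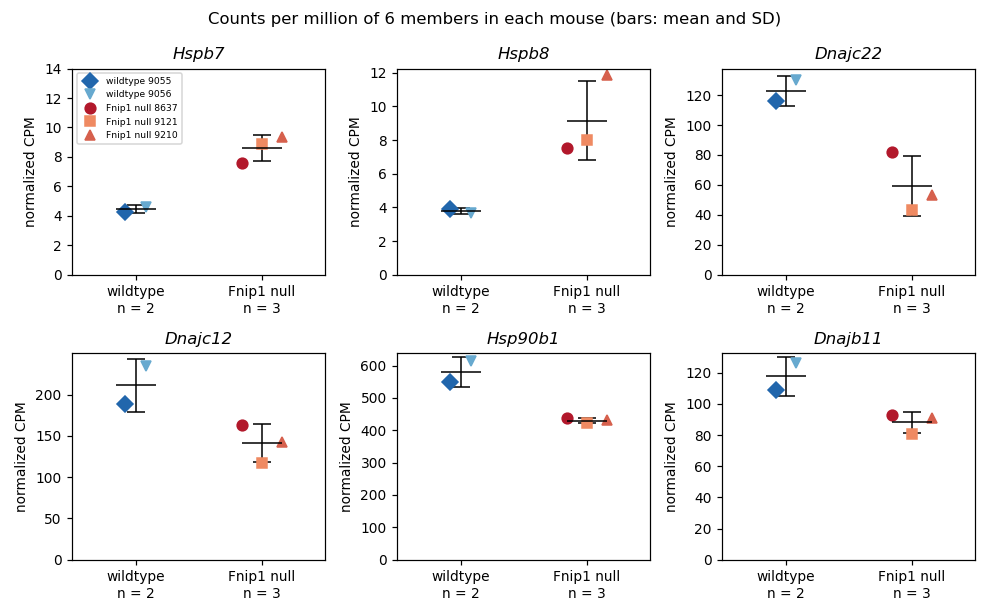
Normalized CPM (vertical axes from 0) of *Hspb7*, *Hspb8*, *Dnajc22*, *Dnajc12*, *Hsp90b1* and *Dnajb11* in each mouse, with horizontal lines for the genotype mean and bars for the SD. *Hspb7* and *Hspb8* lie higher and the other 4 genes lower in all 3 *Fnip1* null mice than in both wildtype mice; none passed the quasi-likelihood test at an FDR of 5%.

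By subfamily, more DnaJ proteins were lower than higher under TMM scaling, and these counts include genes described above. In subfamily A all 4 were lower, 2 of them without overlap (50%; 23.0% of all genes). In subfamily B 7 of 10 tested members were lower and 3 higher, and 3 (30%) and 1 (10%) of them did not overlap. With library size alone 1 was lower and 1 higher without overlap in subfamily A, and 2 and 2 in subfamily B. In subfamily C, 19 of 26 tested members were lower and 7 higher, and the genotypes did not overlap in 8 (30.8%; 23.0% of all genes) and 5 (19.2%; 22.9% of all genes) of them. With library size alone these became 4 lower and 8 higher. *Dnajc2* (ZRF1), the DnaJ protein of the ribosome, was at 44.9, 31.4 and 38.2 CPM in null mice and at 49.5 and 54.0 CPM in wildtype mice (-0.44 ± 0.16, adjusted p = 0.160). *Dnaja4* was at 36.4, 22.0 and 24.9 CPM against 40.1 and 43.4 CPM (-0.59 ± 0.21, adjusted p = 0.165), and 44.1% of its exon bases overlap *Wdr61*. Both were lower in every null mouse and again lowest in mouse 9121.

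Beyond the small heat shock proteins and *Hsf4*, the largest positive log2 fold changes without overlap were in members with low levels. *Dnajb5* was at 7.43, 7.18 and 7.49 CPM in null mice and at 5.41 and 4.58 CPM in wildtype mice (0.56 ± 0.17, adjusted p = 0.120). *Dnajc27*, which carries a Rab-like GTPase domain, was at 6.95, 9.29 and 7.79 CPM against 5.28 and 6.46 CPM (0.45 ± 0.20, adjusted p = 0.222). *Hspa2*, the HSP70 known from male germ cells, was at 9.61, 13.9 and 8.15 CPM against 7.77 and 4.92 CPM (0.74 ± 0.30, adjusted p = 0.198). The highest of these *Hspa2* values was in mouse 9121, the mouse with *Xist*.

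BAG proteins lay near the wildtype level under TMM scaling. Of the 6 members, 4 were higher and 2 lower in null mice, with a median log2 fold change of 0.08 (0.24 with library size alone). With library size alone 4 were higher without overlap, against 5167 of the 13874 genes tested. *Bag1* was at 230 CPM in mouse 8637, 264 CPM in mouse 9121 and 240 CPM in mouse 9210, against 231 and 237 CPM in wildtype mice (0.06 ± 0.10, adjusted p = 0.722). *Bag4* (SODD), which binds TNF receptor 1, was the only BAG gene without overlap under TMM scaling, at 59.6, 73.7 and 69.2 CPM against 58.8 and 53.0 CPM (0.27 ± 0.12, adjusted p = 0.215).

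Chaperones outside the chosen symbols mostly had small negative log2 fold changes under TMM scaling, a direction that library size alone did not keep in the cochaperones and the cytosolic chaperonin. Of 20 further cochaperones of HSP70 and HSP90, 15 had a negative log2 fold change (median -0.08, 0.07 with library size alone), 3 had all null mice below both wildtype mice (15%; 23.0% of all genes) and 0 above. With library size alone 1 was lower and 6 higher without overlap. By the quasi-likelihood test 0 passed the FDR (1 at an unadjusted p under 0.05, 0 by the exact test or DESeq2). Among these, *Ahsa1*, the activator of HSP90, was at 82.9, 61.8 and 65.3 CPM in null mice and at 85.3 and 88.5 CPM in wildtype mice (-0.31 ± 0.14, adjusted p = 0.223). In the cytosolic chaperonin TRiC and prefoldin, 10 of 14 genes were lower (median -0.08, 0.08 with library size alone) and 0 passed (2 at an unadjusted p under 0.05, 0 by the exact test or DESeq2). Of 9 other heat-inducible genes, some of them also among these cochaperones, 8 were lower (median -0.24, -0.095 with library size alone). Mice 9121 and 9210 were both below both wildtype mice in 7 of them (77.8%, against 34.3% of all genes). Of the 9, 0 passed the quasi-likelihood FDR and DESeq2 passed 1, lower (10.7% of all genes in either direction). *Rbm3*, an RNA-binding protein induced by cold, was at 121, 128 and 157 CPM against 84.9 and 80.2 CPM (0.71 ± 0.13, quasi-likelihood adjusted p = 0.0689, exact test adjusted p = 0.00226), while *Cirbp*, the other cold-induced gene read, overlapped between genotypes.

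Immediate early genes, which cells switch on within minutes of a stimulus, did not follow the chaperones. All 17 tested genes of that list had a positive log2 fold change (median 0.67), 13 of them without overlap (76.5%; 22.9% of all genes). By the quasi-likelihood test 0 passed the FDR and 10 had an unadjusted p under 0.05 (58.8%; 25.1% of all genes), and the exact test passed 7 (9.77% of all genes) and DESeq2 8 (10.7% of all genes), all higher. Their median ratio to the wildtype mean was 1.43, 1.91 and 1.54 in mice 8637, 9121 and 9210. Mouse 9121 was thus the highest null mouse by this median, whereas it was among the lowest for heat-inducible and ER members. Of the 15 clock genes read, 8 were higher and 7 lower. Without overlap 4 were higher (26.7%, near the 22.9% of all genes) and 0 lower (23.0% of all genes). *Per2*, for example, was at 77.2, 27.2 and 41.7 CPM in null mice and at 46.0 and 40.5 CPM in wildtype mice.

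**Figure D5:**
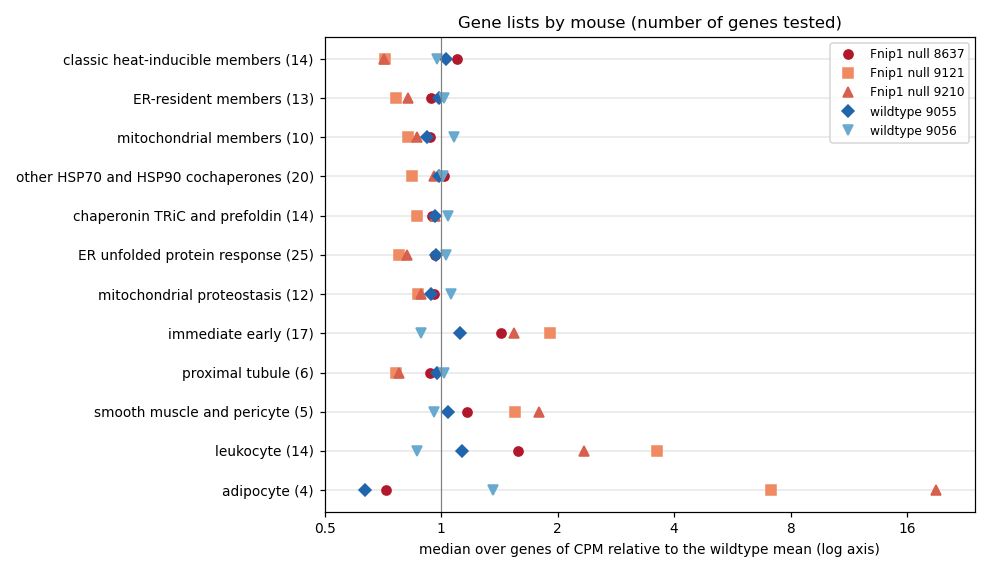
Median over the genes of each list of the CPM relative to the wildtype mean (log axis), for each mouse, with the number of genes tested in parentheses. Heat-inducible and ER-resident members lie at 1.10 and 0.942 in *Fnip1* null mouse 8637 and at 0.714 to 0.823 in the other null mice, whereas the immediate early genes lie at 1.43 to 1.91 in all 3.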

How the data were processed

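RNA of cortical kidney tissue from 3 *Fnip1* null and 2 wildtype mice is analysed here, as sequenced by the authors (TruSeq RNA kit, paired-end reads); a figure legend of the study names more wildtype mice for the RNAseq than these 2. Per the submitters' processing notes, reads were demultiplexed with bcl2fastq 1.8.2 (the methods name a later version), aligned to mm10 with TopHat 2.1.0 and counted per gene symbol with HTSeq 0.6.1; whether counting used strand is not given in the sources used here. The deposited values are these raw counts of 1 library per mouse, with no normalization. Reads without a gene, aligned to several places or ambiguous made up 39% to 42.8% of a file's total and were left out, so genes with near-identical copies are undercounted.

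A gene was kept when at least 3 mice had 10 or more counts, which left 13874. EdgeR 4.0.16 (with limma 3.58.1, in R 4.3.3) was used to compare the genotypes, with TMM factors, the quasi-likelihood test and Benjamini-Hochberg adjustment over all genes tested, and calls needed an FDR under 5% and a 2-fold difference, as in the methods of the study. Alternatives were other scalings, filters and tests (edgeR's likelihood ratio, exact and legacy quasi-likelihood tests, and DESeq2 1.42.0) and leaving out each mouse. The quasi-likelihood, likelihood ratio and exact tests and DESeq2 were first tested on simulated data of known answer, and the legacy test was not. Adjusted p-values with no test named are from the quasi-likelihood test. CPM values are TMM-scaled, and standard errors of log2 fold changes come from the fold change and the F statistic. Levels per kilobase use the union of GENCODE M21 exons (GRCm38), in which all 81 members were matched by symbol, and sharing of sequence was counted over stretches of 50 bases of its transcripts. Promoter sequences are from RefSeq.

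The members, gene lists and tests were chosen with earlier results of these data known. Named members were the heat-inducible list with *Hsf1*, *Hsf2*, *Hsp90b1*, *Hspa5* and *Hspa9*, the 6 highest and 6 lowest log2 fold changes without overlap and with a mean of at least 1 CPM, the 5 smallest p and the 5 highest levels per kilobase (30 in all); *Dnajb3*, *Dnajb9*, *Dnajb12*, *Dnajc3*, *Bag4* and *Hspb6*, and the genes named from other lists, were chosen after their values were seen.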

Additional observations from a re-analysis of the deposited data

How the results depend on the processing

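No member was called under the other scalings, filters or the legacy quasi-likelihood test, and 2 were called by edgeR's exact test, 2 by its likelihood ratio test and 2 by DESeq2, where 565, 628 and 487 genes were called in all against 73. Leaving out 1 *Fnip1* null mouse at a time gave 0 to 3 called members and 0 to 963 called genes. The median log2 fold change of the members was then between -0.223 and -0.061, and 34 to 60 members did not overlap. Among these fits the highest counts of calls, 3 members and 963 genes, were without mouse 8637, and 0 genes were called without mouse 9210. Without a wildtype mouse, 1 mouse stands for that genotype and is assumed to vary like the null mice, so calls of those fits are not compared here. With library size alone the median of the members was 0.047, *Hspa8* was at 0.048 and *Hspa9* at 0.055, each a turn of sign. Leaving out 1 mouse moved *Hspa1a* between -0.441 (without mouse 8637) and 0.805 (without mouse 9210), *Hspa1b* between -0.287 and 0.765 (the same mice), and *Hspa8* between -0.359 (without mouse 8637) and 0.099 (without mouse 9121). The cause was not tested. Of the 390 log2 fold changes of the 30 named members under 13 alternatives, 376 kept their direction and stayed on their side of the call (FDR of 5% and 2-fold), 9 kept their direction and were called and 5 turned. By the FDR alone 29 of the 390 passed, 15 of them without mouse 8637, against 0 of the 30 in the fit reported. No paired analysis was possible because the labels name no pairs of mice between genotypes. Members with few counts, such as *Hsf4* and *Dnajb3*, are limited by depth.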
